A study of Homo sapiens with 27 samples.

Results

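Transcripts of the E2F and pocket protein family were followed in 501mel cells, a human melanoma line with high MITF, through amino acid withdrawal, mTOR inhibition and loss of TFE3 or TFEB. The family was read as the rows of the deposited table with the symbols E2F1, E2F2, E2F3, E2F7, E2F8, TFDP1, RB1, RBL1 and RBL2, which are 9 of 13523 genes. The set was selected on the measured fall of E2F2 with Torin in the double knockout, and the comparison that served for this choice is described below without a test.

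E2F proteins bind gene promoters as dimers with a DP subunit and switch on the genes of S phase entry, DNA replication and nucleotide synthesis. The pocket proteins, RB1 and its relatives RBL1 and RBL2, bind E2Fs and hold these genes down in resting cells, and growth signals that pass through mTOR and the cyclin-dependent kinases release them. E2F1, E2F2 and E2F3 are known as activators, E2F7 and E2F8 as repressors that act without a DP partner, and several of these genes are themselves E2F targets.

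The study asked how TFE3 and TFEB, transcription factors related to MITF that act in the nucleus when mTOR complex activity is low, shape expression in these cells. WT cells were either not treated (a label that gives no time), placed for 12 h in HBSS, a buffered saline that holds glucose but no amino acids, or given 250 nM Torin, an mTOR inhibitor, for 12 h. Cells with Cas9 knockouts of TFE3 (TFE3 KO), of TFEB (TFEB KO) or of both (DKO) were kept for 12 h as controls or with 250 nM Torin for 12 h. The labels give 3 libraries for each of the 9 groups, all labelled as grown in DMEM with serum, where the study's methods give RPMI for this line, and each knockout genotype is 1 clone, so that clone and genotype cannot be told apart. Nothing in the labels says that libraries of a group came from separate cultures, and p-values then measure the spread between these libraries only.

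The columns labelled WT HBSS replicate 3 and WT Torin replicate 1 held identical values in every gene and were left out of both groups, which left 2 libraries in each and 25 in all. Library totals over these genes ran from 4147050 to 6526392 reads. All levels below are normalised read counts, which are 3′ end reads scaled to the library total (CPM) and divided by a factor per library. On this scale 3 reads, the upper limit behind a count of 0, stood for 0.460 to 0.711. TFE3 read 23.8 to 24.3 in WT control and 5.06 to 7.59 in TFE3 KO control libraries, and TFEB 2.34 to 3.96 in WT control and 0.750 to 1.66 in TFEB KO control libraries, although 3′ end reads do not cover the edited site. TFEB also read only 0.177 to 1.56 in TFE3 KO control libraries. All 8 melanocyte markers sought were in the table, with a summed value of 5193 to 14480 per library. This sum was 6243 to 6433 in WT control and 14330 to 14480 in HBSS libraries. Of the other lists, 3 of 6 fibroblast markers summed to 0.624 to 7.38, the keratinocyte list was read by KRT10 alone (48.1 to 117) and the immune list by CD68 alone (29.5 to 74.2). The other markers of these lists and the 4 endothelial markers had no row under their symbols in the table. CD68 was 29.5 to 43.6 in WT control and 53.4 to 62.8 in WT Torin libraries, and the part of CD68 or of the melanocyte sum in any result was not tested.

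The promoters of the members are shown because E2F genes are known to be bound by their own products. RefSeq promoters (GRCh38.p14) were matched by symbol for 8 of the 9 members, all but E2F8. The 250 bases before each start were searched on both strands for TTTCCCGC, TTTCGCGC, TTTGCCGC or TTTGGCGC, letters of the E2F site. The windows below are the 150 bases before the start, written 5′ to 3′ on the gene's strand, and capitals mark a match. E2F7 is shown as a member without one.
E2F1, chr20:33686386-33686535 (- strand): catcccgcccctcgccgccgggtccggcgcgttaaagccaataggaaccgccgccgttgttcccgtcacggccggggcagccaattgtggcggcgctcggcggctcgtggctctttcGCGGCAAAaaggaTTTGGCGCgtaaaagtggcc
E2F2, chr1:23531234-23531383 (- strand): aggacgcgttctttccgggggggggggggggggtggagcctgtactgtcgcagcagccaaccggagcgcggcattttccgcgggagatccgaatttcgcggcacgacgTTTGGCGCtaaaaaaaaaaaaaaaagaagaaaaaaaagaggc
E2F3, chr6:20401729-20401878 (+ strand): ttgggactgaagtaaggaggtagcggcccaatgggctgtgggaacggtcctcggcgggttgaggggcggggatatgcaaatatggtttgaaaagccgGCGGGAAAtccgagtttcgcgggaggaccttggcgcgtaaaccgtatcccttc
RBL1, chr20:37095998-37096147 (- strand): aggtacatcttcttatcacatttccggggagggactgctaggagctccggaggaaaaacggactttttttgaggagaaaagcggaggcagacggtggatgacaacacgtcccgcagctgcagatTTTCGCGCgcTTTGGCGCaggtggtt
E2F7, chr12:77065570-77065719 (- strand): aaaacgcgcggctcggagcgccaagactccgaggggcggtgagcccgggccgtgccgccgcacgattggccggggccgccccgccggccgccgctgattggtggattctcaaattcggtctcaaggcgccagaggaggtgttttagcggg
A match lay in 5 of the 8 promoters, those of E2F1 (2 matches), E2F2, E2F3, TFDP1 and RBL1 (2 matches). In E2F1 the matches began 33 and 20 bases before the start, in E2F2 42, in E2F3 53 and in RBL1 26 and 16. The same letters were in 2.79% of all 27305 promoters, in 4.48% of the 9938 promoters of genes in the table and in 15 of 45 promoters (33.3%) of a list of known E2F targets. E2F7, RB1 and RBL2 had no match, but the RefSeq starts of RB1, RBL2 and TFDP1 lie inside the span that GENCODE gives these genes, and their windows are not printed. The TFDP1 window ended at base 113584752, close to its GENCODE start at 113584721. The RB1 window ended at base 48476449, far inside a span that starts at 48303744, so the RB1 promoter at that GENCODE start was not searched. The CHR, TTTGAA, an element of mitotic genes, was in 1 member (E2F3), in 13.6% of all promoters and in 13 of 25 promoters (52.0%) of a list of G2/M genes. The E-box CACGTG, the letters best known for MITF, TFE3 and TFEB, was in none of the 8 windows and in 6.49% of all promoters.

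With Torin, E2F1, E2F2, the DP partner and RBL1 fell in every genotype tested, and RBL2 rose. E2F3 also passed as lower in each, but its calls in WT and in TFEB KO were lost under several alternatives, given below. In WT, 7 of the 9 members fell and 1 rose at an adjusted p under 0.05, where 23.4% and 20.5% of the 13052 genes tested did. The median log2 fold change of the members was -1.06, against 0.00 over all genes. Among them, 5 fell by at least 1 on the log2 scale, as 4.0% of all genes did. In TFE3 KO, 8 members fell and 1 rose (background 26.0% and 25.4%), and 5 of these falls reached 1 on the log2 scale (4.69%). In TFEB KO, 6 fell and 1 rose (21.0% and 17.4%), and 2 falls reached that size (1.65%). In HBSS, 5 fell and 2 rose (24.7% and 23.6%), and 2 falls reached it (6.2%). All 9 members passed the filter on low values. Torin and HBSS in WT were read against the same 3 control libraries. In RNA from whole cultures, fewer cells in a phase of the cell cycle and less RNA per cell cannot be told apart.

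**Figure D1:**
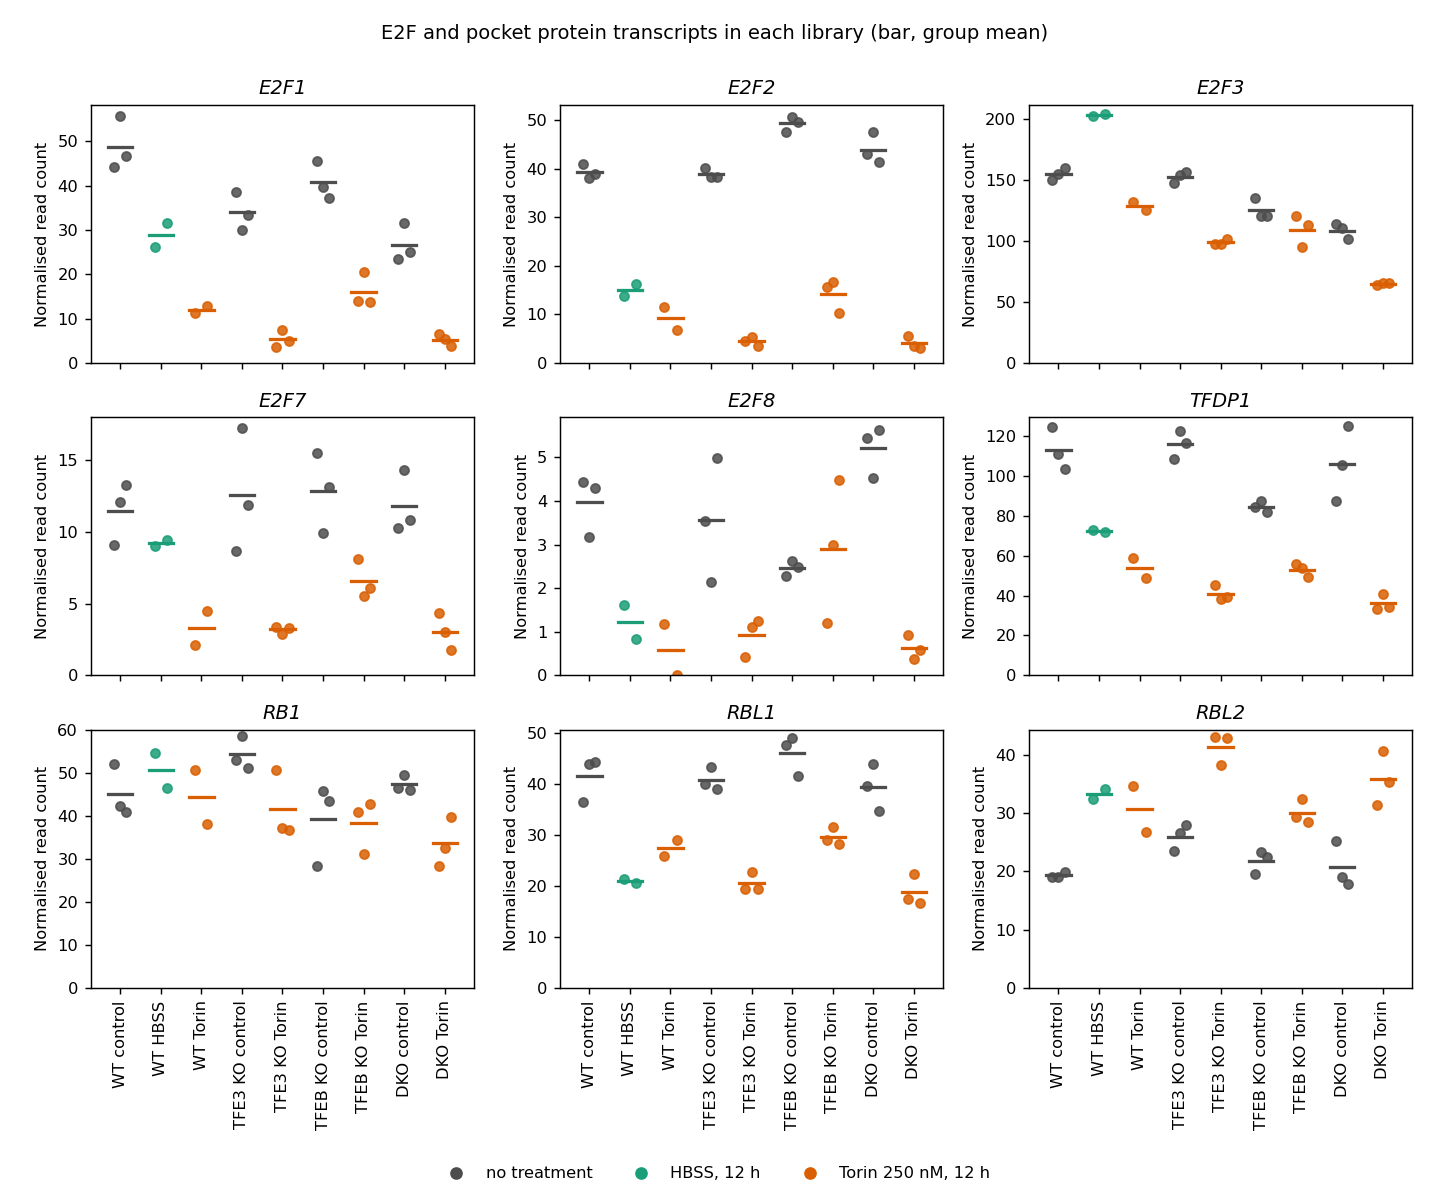
Normalised read count of each member (vertical axis, from 0) in each of the 25 libraries, by group (horizontal axis), with a bar at the group mean. E2F2 lay between 38.2 and 50.8 in untreated libraries and between 3.15 and 16.6 in treated ones, while RBL2 was lowest by group mean in WT control, at 19.3.

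E2F2 (hg38, as for all members, chromosome 1, 23506438 to 23531233, - strand) is an activator E2F. It read 40.9, 38.2 and 39.0 in WT control, 13.8 and 16.3 in HBSS, and 11.5 and 6.87 with Torin. Treated and untreated libraries of WT did not overlap, and the Torin pair was spread more widely than the HBSS pair. The fitted log2 fold change (limma, on log2(value + 1)) was -2.03 ± 0.19 (SE) with Torin (adjusted p 4.54e-12) and -1.33 ± 0.19 with HBSS (adjusted p 1.22e-07). In TFE3 KO it went from 40.1, 38.3 and 38.4 to 4.45, 5.34 and 3.54, a log2 fold change of -2.89 ± 0.17 (adjusted p 3.68e-19). In TFEB KO it went from 47.6, 50.8 and 49.7 to 15.7, 16.6 and 10.4, a log2 fold change of -1.75 ± 0.17 (adjusted p 1.73e-11). The highest TFE3 KO Torin library was below the lowest Torin library of WT and of TFEB KO. As ratios of means, E2F2 was 8.76-fold lower with Torin in TFE3 KO, 4.29-fold lower in WT and 3.47-fold lower in TFEB KO. The residual 17 to 24 reads in TFE3 KO Torin libraries were above the 3 reads that a count of 0 allows.

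In DKO, the comparison that brought E2F2 into view, it read 43.0, 47.6 and 41.3 in control and 5.54, 3.41 and 3.15 with Torin. The log2 fold change was -3.19, or 10.9-fold as a ratio of means, and with a pseudocount of 0.1 it was -3.46. The DKO Torin libraries overlapped those of TFE3 KO and lay below those of WT and TFEB KO. In the order of group means the 4 untreated groups came first, with WT and TFE3 KO overlapping. WT HBSS, TFEB KO Torin and WT Torin followed, each overlapping the next, and TFE3 KO Torin and DKO Torin came last and overlapped.

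E2F1 (chromosome 20, 33675477 to 33686385, - strand), an activator that RB1 is best known for restraining, read 44.2, 55.6 and 46.6 in WT control, 26.2 and 31.6 in HBSS, and 11.2 and 12.8 with Torin. The 3 WT groups did not overlap, with HBSS between control and Torin. Its log2 fold change was -1.93 ± 0.20 with Torin (adjusted p 7.94e-11) and -0.73 ± 0.20 with HBSS (adjusted p 0.00223, and 0.0594 without WT HBSS replicate 1). In TFE3 KO it fell from 38.7, 29.9 and 33.4 to 3.60, 7.35 and 4.99, by 2.51 ± 0.18 on the log2 scale (adjusted p 4.31e-16). In TFEB KO it fell from 45.5, 39.7 and 37.1 to 14.0, 20.4 and 13.8, by 1.31 ± 0.18 (adjusted p 9.96e-08). All TFEB KO Torin libraries were above all WT Torin libraries, and those in turn above all TFE3 KO Torin libraries. In DKO it read 23.4, 31.6 and 25.04 in control and 6.62, 5.50 and 3.74 with Torin, the latter overlapping TFE3 KO.

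E2F3 (chromosome 6, 20401879 to 20493714, + strand) is the third activator and had the highest values of them. It read 149.4, 155.0 and 159.2 in WT control, 201.8 and 204.1 in HBSS, and 132.0 and 124.9 with Torin. It thus rose in HBSS, where E2F1 and E2F2 fell, and the 3 groups did not overlap. Its log2 fold change was 0.39 ± 0.09 with HBSS (adjusted p 0.000389) and -0.27 ± 0.09 with Torin (adjusted p 0.0166). The Torin call in WT was lost without WT control replicate 3 (adjusted p 0.0529) or WT Torin replicate 3 (0.137) and with edgeR (0.0660), and the log2 fold change was -0.05 with the identical column counted as WT Torin. In TFE3 KO it fell from 147.1, 153.7 and 155.9 to 97.7, 97.5 and 101.5, by 0.62 ± 0.08 (adjusted p 1.57e-08). In TFEB KO the libraries read 135.3, 120.3 and 120.5 in control and 120.0, 95.02 and 112.6 with Torin, a log2 fold change of -0.20 ± 0.08 (adjusted p 0.0470) that 10 of the 17 alternatives put above the threshold. In DKO it read 113.6, 110.2 and 101.3 in control and 63.5, 65.4 and 65.7 with Torin, the lowest of all 9 groups.

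The make-up of the 3 activators shifted with both treatments. E2F3 made up 63.7% ± 1.4 (SD, n = 3) of the reads of E2F1, E2F2 and E2F3 in WT control and 85.9% ± 0.77 (n = 2) with Torin. It was 82.2% ± 1.7 (n = 2) in HBSS, so that the share was higher in both treatments. The value of E2F3 itself was higher in HBSS and lower with Torin, and the Torin call was lost under several alternatives. With Torin it reached 91.0% ± 2.2 in TFE3 KO and 78.1% ± 5.5 in TFEB KO (n = 3 each), from 67.6% ± 2.2 and 58.1% ± 1.1 in their controls. No treated library overlapped an untreated one, the highest untreated share being 69.3% and the lowest treated one 71.9%. Each 3′ end read stands for 1 transcript, so reads of different genes were set side by side with no correction for length. These shares do not depend on how a library was scaled, and they were computed after the members' values had been seen.

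**Figure D2:**
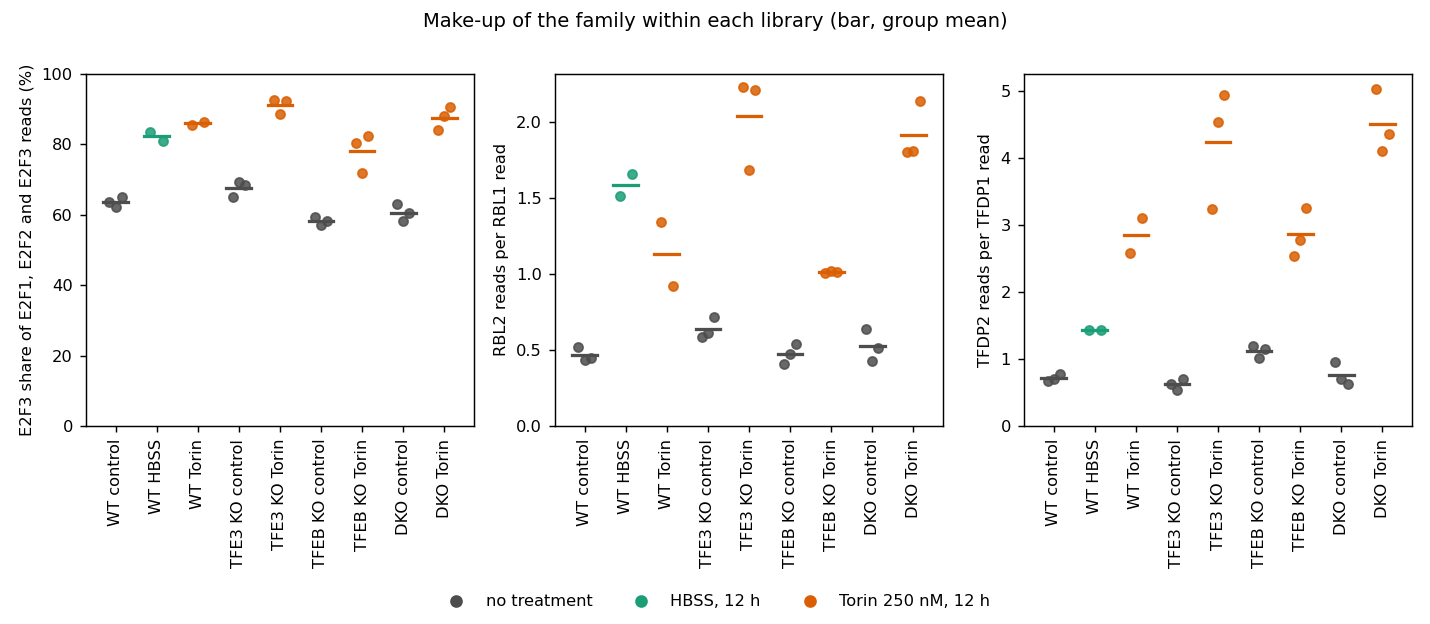
Within-library make-up of the family, by group (horizontal axes), with 1 point per library and a bar at the group mean. The vertical axes give the E2F3 share of E2F1, E2F2 and E2F3 reads in percent, RBL2 reads per RBL1 read and TFDP2 reads per TFDP1 read, each from 0, and all 3 were higher in every Torin library than in any control library.

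TFDP1 (chromosome 13, 113584721 to 113641473, + strand), the main DP subunit of E2F dimers, read 124.2, 110.8 and 103.6 in WT control, 72.7 and 72.0 in HBSS, and 59.1 and 48.6 with Torin. It fell by 0.63 ± 0.12 on the log2 scale with HBSS (adjusted p 1.86e-05) and by 1.06 ± 0.12 with Torin (adjusted p 4.69e-10). It fell by 1.48 ± 0.11 in TFE3 KO (adjusted p 2.66e-16), from 108.3, 122.4 and 116.5 to 45.4, 38.5 and 39.1. In TFEB KO it went from 84.5, 87.3 and 81.9 to 55.7, 53.9 and 49.1, a log2 fold change of -0.67 ± 0.11 (adjusted p 1.68e-06). Controls and treated libraries were apart in each genotype, and the TFEB KO control had the lowest control mean. TFDP2, the other DP subunit and not one of the 9 genes, went the other way, from 80.6 ± 2.9 (SD, n = 3) to 152 ± 0.80 (n = 2) with Torin in WT (log2 fold change 0.90, adjusted p 3.58e-10). It rose by 1.24 in TFE3 KO (adjusted p 3.45e-16), by 0.66 in TFEB KO (adjusted p 7.61e-08) and by 0.36 with HBSS (adjusted p 0.00240). TFDP2 reads per TFDP1 read were 0.717 ± 0.055 in WT control, 1.44 ± 0.0038 in HBSS, 2.84 ± 0.38 with Torin and 4.23 ± 0.89 in TFE3 KO with Torin.

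E2F7 (chromosome 12, 77021248 to 77065569, - strand) is a repressor E2F that is itself raised in S phase. It read 9.04, 12.1 and 13.3 in WT control, 8.97 and 9.42 in HBSS, and 2.11 and 4.50 with Torin. The HBSS libraries overlapped the controls (-0.27, 95% interval -0.82 to 0.27, adjusted p 0.426) and the Torin libraries lay below them (-1.58 ± 0.27, adjusted p 4.82e-06). With Torin it fell by 1.64 ± 0.24 in TFE3 KO (adjusted p 1.44e-07) to 3.39, 2.89 and 3.33, and by 0.87 ± 0.24 in TFEB KO (adjusted p 0.00362) to 8.11, 5.50 and 6.11. Its levels in the 4 untreated groups overlapped, with group means of 11.5 to 12.8.

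E2F8 (chromosome 11, 19224063 to 19241620, - strand), the second repressor of this kind, was the lowest member, with 0 to 36 reads per library. It read 4.44, 3.17 and 4.29 in WT control, 1.61 and 0.837 in HBSS, and 1.17 and 0 with Torin. It fell with Torin in WT (-1.74 ± 0.34, adjusted p 3.52e-05) and in HBSS (-1.17 ± 0.34, adjusted p 0.00337, and 0.0840 without WT HBSS replicate 2). In TFE3 KO it fell by 1.22 ± 0.30 (adjusted p 0.000664), from 3.53, 2.15 and 4.99 to 0.424, 1.11 and 1.25. In TFEB KO it read 2.28, 2.62 and 2.49 in control and 1.21, 2.98 and 4.48 with Torin, and the groups overlapped (0.07, 95% interval -0.53 to 0.68, adjusted p 0.872). At these values the added 1 draws fold changes towards 0. In DKO it read 5.45, 4.53 and 5.63 in control and 0.923, 0.379 and 0.590 with Torin.

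RBL1 (chromosome 20, 36996349 to 37095997, - strand), the pocket protein of growing cells, read 36.5, 43.7 and 44.3 in WT control, 21.4 and 20.5 in HBSS, and 25.8 and 28.9 with Torin. It fell by 0.95 ± 0.14 with HBSS (adjusted p 2.70e-07) and by 0.58 ± 0.14 with Torin (adjusted p 0.000827). The HBSS libraries were below the Torin libraries, the reverse of the order of E2F1 and E2F2. With Torin it fell by 0.96 ± 0.13 in TFE3 KO (adjusted p 1.45e-08), to 19.3, 22.7 and 19.4, and by 0.62 ± 0.13 in TFEB KO (adjusted p 0.000114), to 29.0, 31.6 and 28.1.

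RBL2 (chromosome 16, 53433977 to 53491648, + strand), the pocket protein of resting cells, rose in each tested treatment in which RBL1 fell. It read 19.1, 19.0 and 19.9 in WT control, 32.5 and 34.1 in HBSS, and 34.7 and 26.8 with Torin. The log2 fold change was 0.75 ± 0.15 with HBSS (adjusted p 3.97e-05) and 0.63 ± 0.15 with Torin (adjusted p 0.000555, and 0.45 with adjusted p 0.0544 without WT Torin replicate 2). In TFE3 KO it went from 23.5, 26.5 and 27.9 to 43.0, 38.3 and 42.9, a log2 fold change of 0.65 ± 0.13 (adjusted p 5.82e-05). In TFEB KO it went from 19.6, 23.2 and 22.4 to 29.3, 32.4 and 28.5, a log2 fold change of 0.45 ± 0.13 (adjusted p 0.00612). No treated library of a genotype overlapped its controls. RBL2 reads per RBL1 read were 0.469 ± 0.047 (SD, n = 3) in WT control, 1.59 ± 0.10 (n = 2) in HBSS, 1.14 ± 0.30 (n = 2) with Torin, 2.04 ± 0.31 (n = 3) in TFE3 KO with Torin and 1.02 ± 0.0069 (n = 3) in TFEB KO with Torin. The highest ratio in an untreated library was 0.716 and the lowest in a treated one 0.926.

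RB1 (chromosome 13, 48303744 to 48599436, + strand), the retinoblastoma protein gene, read 52.1, 42.4 and 41.0 in WT control, 54.8 and 46.5 in HBSS, and 50.6 and 38.2 with Torin, which all overlapped. The intervals of its log2 fold change were -0.18 to 0.51 with HBSS, -0.38 to 0.32 with Torin in WT and -0.33 to 0.30 with Torin in TFEB KO. In TFE3 KO it read 53.2, 58.6 and 51.3 in control and 50.7, 37.2 and 36.8 with Torin, a fall of 0.39 ± 0.15 (adjusted p 0.0318). Controls and Torin libraries did not overlap there, but the call was lost on leaving out TFE3 KO control replicate 1 or 2 or TFE3 KO Torin replicate 2 or 3 (adjusted p 0.0565 to 0.134). In DKO it read 46.4, 49.5 and 46.2 in control and 28.5, 32.6 and 39.8 with Torin, a log2 fold change of -0.50 with no overlap.

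**Figure D3:**
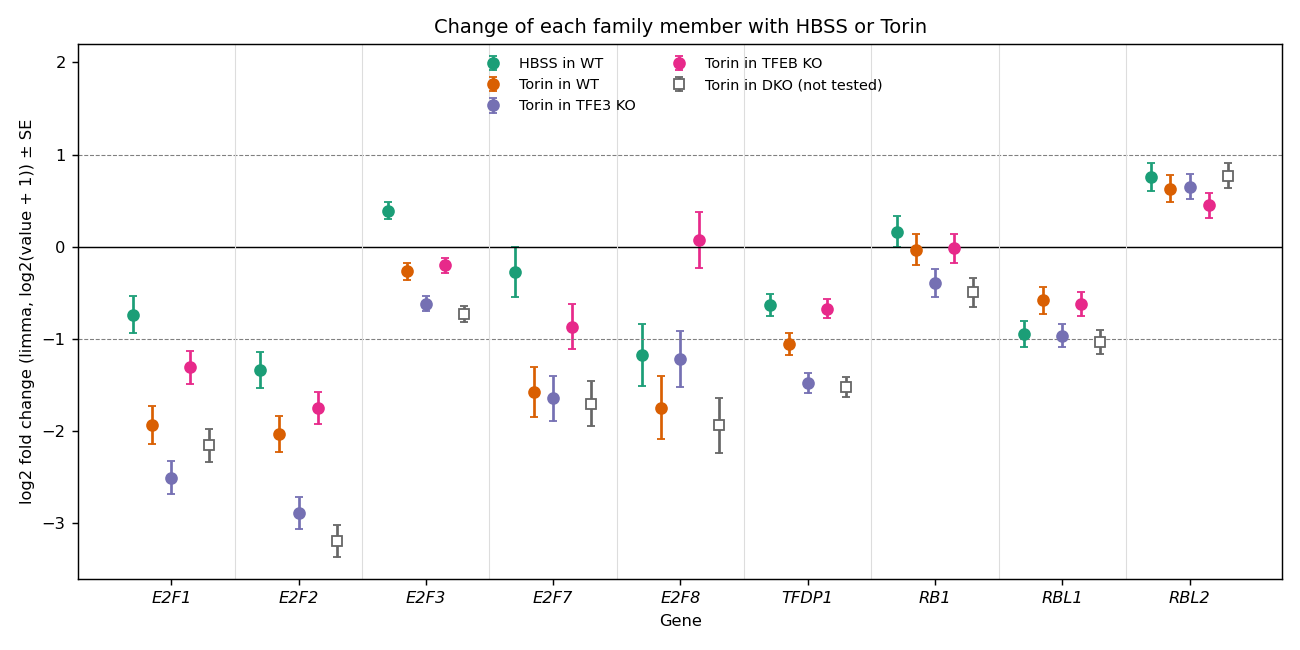
Log2 fold change (limma, log2(value + 1), vertical axis) of each member (horizontal axis) with HBSS in WT and with Torin in WT, TFE3 KO, TFEB KO and, as open squares without a test, DKO. Bars are ± 1 SE and dashed lines mark a log2 fold change of 1 in either direction. For E2F1, E2F2, E2F3 and TFDP1 the TFEB KO point is the highest of the 4 Torin points and the TFE3 KO and DKO points are the lowest.

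The Torin response was then compared between genotypes by interaction terms. Between the 2 single knockouts, 4 members differed, where 7.68% of all genes did, and all 4 had the lower log2 fold change in TFE3 KO (background 4.58%). The difference, TFE3 KO minus TFEB KO, was -1.20 ± 0.26 (SE) for E2F1 (adjusted p 0.00140), -1.14 ± 0.24 for E2F2 (0.00148), -0.81 ± 0.15 for TFDP1 (0.000215) and -0.41 ± 0.12 for E2F3 (0.0177). That of E2F3 did not pass without TFEB KO control replicate 2 (0.0510) or TFEB KO Torin replicate 1 (0.0818). With the identical column counted as WT Torin, which enters the estimate of spread shared by all groups but not the difference, E2F1 (0.0676) and E2F3 (0.243) did not pass. With the column under both labels E2F1 (0.0556) and E2F3 (0.224) did not pass either. With it counted as WT HBSS none of the 4 calls was lost. For E2F8 the difference was -1.29 ± 0.43 (adjusted p 0.0511, and 0.0359 with edgeR), and for E2F7, RB1, RBL1 and RBL2 the adjusted p was 0.167 to 0.592.

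Each single knockout was also set against WT. For TFE3 KO minus WT, none of the 9 members passed with limma (4 at an unadjusted p under 0.05), none with edgeR and 1 with DESeq2, and 1.06% of all genes passed with limma. E2F2 came to -0.86 ± 0.26 (95% interval -1.39 to -0.34, adjusted p 0.103), and passed with DESeq2 (0.0390) and without WT Torin replicate 3 (-1.20, adjusted p 0.0374). For TFEB KO minus WT, E2F8 alone passed (1.82 ± 0.45, adjusted p 0.0309, background 1.16%). That value rests on 5 reads in the WT Torin libraries and did not pass on leaving out any of 7 libraries (adjusted p 0.0514 to 0.317), which were WT control replicates 1 and 3, WT Torin replicate 3, TFEB KO control replicates 1 and 2 and TFEB KO Torin replicates 2 and 3, or with edgeR (0.0532). E2F1 differed by 0.62 ± 0.27 (adjusted p 0.287). A difference between the single knockouts was thus found for the activators and TFDP1, and none of either knockout from WT passed for them in this fit.

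**Figure D4:**
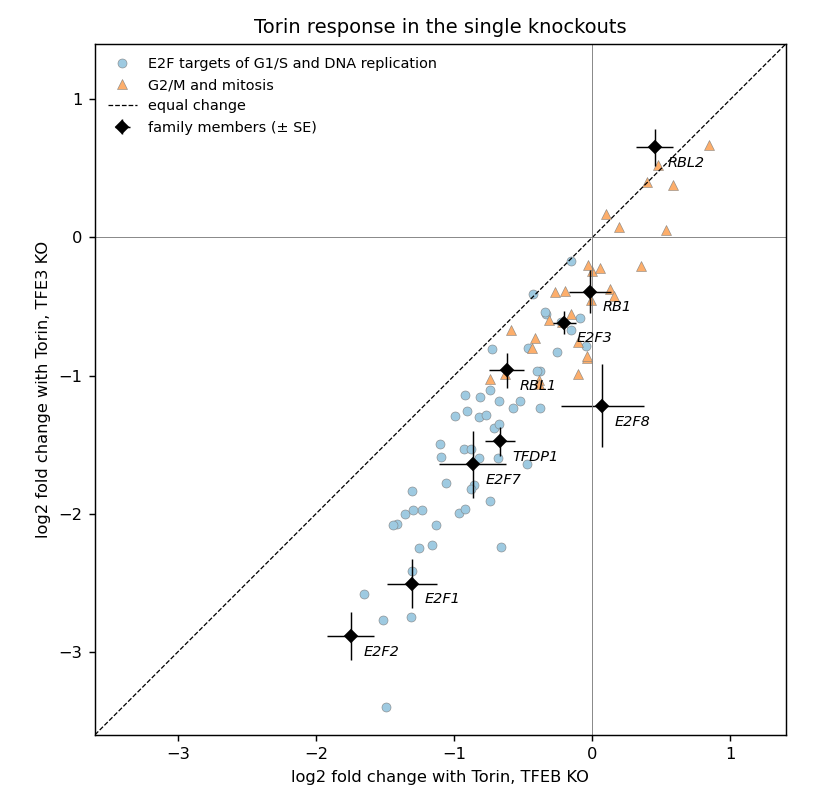
Log2 fold change with Torin in TFEB KO (horizontal axis) against that in TFE3 KO (vertical axis) for the 9 members (diamonds, ± 1 SE), 54 known E2F targets (circles) and 30 G2/M genes (triangles), with a line of equal change. All members but RBL2, and 53 of the 54 E2F targets, lie below the line. The difference passed for E2F1, E2F2, E2F3 and TFDP1 among the members, and RBL2 lies nearest to the line among the members that passed in both.

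HBSS and Torin differed within WT for 6 of the 9 members (background 49.2%). Set against Torin, HBSS libraries were higher in E2F1 (1.20 ± 0.22, adjusted p 1.55e-05), E2F7 (1.30 ± 0.30, 0.000287), E2F2 (0.69 ± 0.21, 0.00600), E2F3 (0.66 ± 0.10, 4.78e-07) and TFDP1 (0.43 ± 0.13, 0.00601). They were lower in RBL1 (-0.37 ± 0.16, adjusted p 0.0480), a call lost on leaving out any 1 of the 4 libraries (0.0570 to 0.239). The calls of E2F2 (0.0729 without WT HBSS replicate 2, 0.253 without WT Torin replicate 3) and TFDP1 (0.145 without WT Torin replicate 3) also turned on single libraries. With 2 libraries a group, leaving 1 out leaves a lone library that is assumed to vary like the other groups.

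Without treatment the knockouts changed few members. In TFE3 KO control, RBL2 was higher than in WT (0.41 ± 0.13, adjusted p 0.0451, background in either direction 9.41%), at 23.5 to 27.9 against 19.0 to 19.9. That call was lost on leaving out any of 5 of the 6 libraries (adjusted p 0.0785 to 0.170), all but TFE3 KO control replicate 1. In TFEB KO control, E2F3 was lower (-0.30 ± 0.08, adjusted p 0.00909, and 0.138 with the identical column counted as WT Torin). TFDP1 was lower there too (-0.41 ± 0.11, adjusted p 0.00635, and 0.0550 without WT control replicate 1). The background in either direction was 14.6%. In DKO control, E2F1 (-0.85 ± 0.18, adjusted p 0.000636) and E2F3 (-0.51 ± 0.08, 8.22e-06) were lower (background in either direction 13.1%), with no overlap with WT libraries. E2F1 was lower in TFE3 KO control too, at 29.9 to 38.7 against 44.2 to 55.6 in WT control, but did not pass with limma (-0.51, adjusted p 0.0646) and did with edgeR (0.0120) and DESeq2 (0.0174). The WT controls were labelled as not treated and the knockout controls as 12 h controls, so that handling and genotype cannot be told apart here.

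With Torin in DKO, given as values only, 6 of the 9 members had a log2 fold change of -1 or lower, as 4.29% of all genes did. These were E2F1 (-2.15), E2F2 (-3.19), E2F7 (-1.70), E2F8 (-1.94, and -2.92 with a pseudocount of 0.1 or edgeR), TFDP1 (-1.52) and RBL1 (-1.04). E2F3 was at -0.73, RB1 at -0.50 and RBL2 at 0.77. For all 9 members the DKO Torin and DKO control libraries did not overlap (57.1% of all genes).

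The genes around the family were read from lists of genes with known roles. Of 54 genes known as E2F targets at G1/S and in DNA replication, 50 fell with Torin in WT, where 23.4% of all genes did. In TFE3 KO 53 fell (26.0%), in TFEB KO 48 (21.0%) and in HBSS 46 (24.7%). ORC6, of the origin recognition complex, alone rose in HBSS (0.72, background 23.6%) and was named after its value was seen. The median of the 54 log2 fold changes was -1.14 in WT, -1.51 in TFE3 KO, -0.82 in TFEB KO and -0.69 in HBSS. Medians of all genes were between -0.03 and 0.02. In WT with Torin the largest falls were those of RRM2, a subunit of ribonucleotide reductase (-2.37, adjusted p 1.52e-25), UHRF1, which brings the maintenance DNA methyltransferase to replicated DNA (-2.18, 1.71e-09), and CDC6, which loads the replicative helicase (-2.16, 2.71e-19). UHRF1 (-2.70), CDC6 (-1.87) and FAM111B (-1.73) led in HBSS. In TFE3 KO the leading genes were FAM111B (-3.40, adjusted p 6.29e-16), MCM10, a replication initiation factor (-2.77, 2.48e-23), and CLSPN, of the replication checkpoint (-2.75, 1.43e-26). In TFEB KO CDC6 (-1.66), MCM10 (-1.52) and FAM111B (-1.49) led. Between the single knockouts 38 of the 54 passed with the lower log2 fold change in TFE3 KO (background 4.58%), and 17 with the identical column counted as WT Torin.

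G2/M and mitotic genes, which the DREAM complex and B-MYB are known to control, were counted in the same comparisons. Of 30, 23 rose and 7 did not pass in HBSS (23.6% of all genes rose, list median 0.52). CDC25C (1.33, adjusted p 5.73e-08), CENPF (1.25, 0.000407) and KIF20A (1.23, 4.44e-10) led there. With Torin in WT, 8 rose and 11 fell (20.5% and 23.4% of all genes, list median -0.16), and 2 fell with the identical column counted as WT Torin. CDC25C (0.94), CENPF (0.92) and TOP2A (0.72) were higher. In TFE3 KO, 4 rose and 20 fell (25.4% and 26.0%, list median -0.44), among them KIF23 (-1.06), CDK1 (-1.03) and AURKA (-1.02). In TFEB KO, 5 rose and 9 fell (17.4% and 21.0%, list median -0.04), with CENPF at 0.85, AURKA at -0.74 and AURKB at -0.63. Of the 30, 15 passed as higher in DKO control than in WT control (background 5.64%). In TFE3 KO control and in TFEB KO control 4 passed as higher, and 0 passed as lower in any of the 3 knockouts. In either direction, 9.41% of all genes passed in TFE3 KO control, 14.6% in TFEB KO control and 13.1% in DKO control. The list medians against WT control were 0.25 in DKO, 0.24 in TFE3 KO and 0.10 in TFEB KO control. Handling and genotype cannot be told apart in these 3 comparisons.

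**Figure D5:**
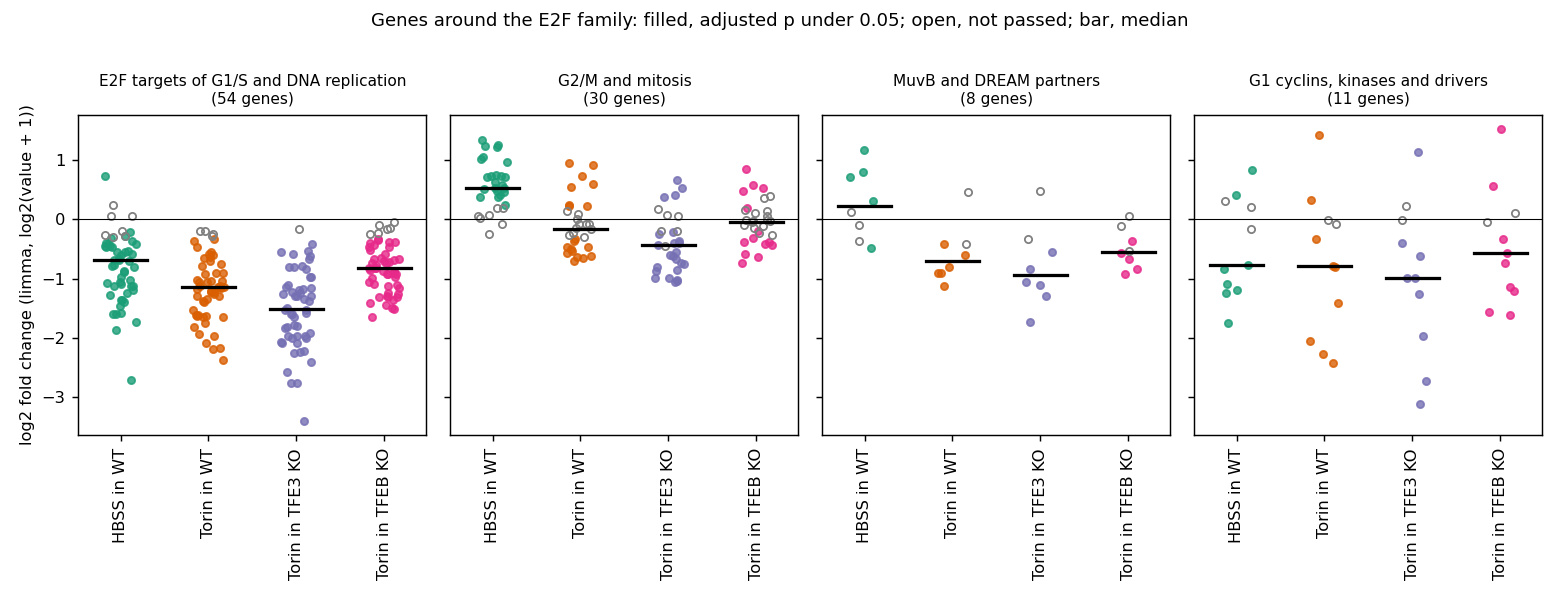
Log2 fold change (limma, log2(value + 1), vertical axis) of each gene of 4 lists, in 4 comparisons (horizontal axis), filled where the adjusted p was under 0.05 and open where not, with a bar at the list median. The E2F target medians lie between -1.51 and -0.69 in all 4 comparisons, and the G2/M median is 0.52 in HBSS and -0.44 with Torin in TFE3 KO.

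Partners of the family at promoters were read next. MuvB subunits join RBL1 or RBL2 with E2F4 at cell cycle promoters. The list of 8 MuvB and DREAM genes holds such subunits and also MYBL1, MYBL2 and FOXM1. Of the 8, 6 fell with Torin in WT (all genes, 23.4%), 6 in TFE3 KO (26.0%) and 5 in TFEB KO (21.0%). The list medians were -0.70, -0.95 and -0.55 in that order. Among the MuvB subunits, LIN52, LIN54 and RBBP4 fell with Torin in WT, and LIN9 (adjusted p 0.207) and LIN37 (0.155) did not pass. MYBL2, which takes the place of the pocket proteins on MuvB in S phase, fell by 1.12 in WT (adjusted p 4.11e-10), by 1.73 in TFE3 KO (7.79e-17) and by 0.93 in TFEB KO (3.74e-09). FOXM1, the mitotic partner, fell by 0.91 in WT, by 1.05 in TFE3 KO and by 0.57 in TFEB KO, and LIN52, a MuvB subunit, by 0.90, 1.30 and 0.85 in WT, TFE3 KO and TFEB KO. MYBL1, related to MYBL2, fell by 0.80 in WT, by 1.11 in TFE3 KO and by 0.66 in TFEB KO (adjusted p 0.00893, 4.93e-05 and 0.0170). In HBSS 4 of the 8 rose (23.6% of all genes) and 1 fell (24.7%), at a median of 0.22, with LIN54 (1.18, adjusted p 1.72e-06), LIN52 (0.80) and LIN9 (0.71) highest. Of 4 further E2F and DP genes, E2F4 (-0.74, adjusted p 3.04e-06) and E2F6 (-0.73, 6.30e-05) fell and TFDP2 rose with Torin in WT. The same 3 genes passed in the same directions in TFE3 KO, TFEB KO and HBSS.

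Upstream of the pocket proteins, 7 of 11 G1 cyclins, kinases and drivers fell and 2 rose with Torin in WT (all genes, 23.4% and 20.5%; list median -0.78). CDC25A, the phosphatase that activates CDK2, fell from 77.3 ± 6.3 (SD, n = 3) to 13.9 ± 4.2 (n = 2), a log2 fold change of -2.42 (adjusted p 1.68e-15). CCNE2 (-2.27, adjusted p 2.04e-10), a cyclin of S phase entry, and CCND3 (-2.06, 2.28e-15), a D-type cyclin that starts pocket protein phosphorylation, fell with it. In TFE3 KO 8 fell and 1 rose (26.0% and 25.4%, median -0.99), led by CCNE2 (-3.11), CDC25A (-2.72) and CCND3 (-1.97). In TFEB KO 7 fell and 2 rose (21.0% and 17.4%, median -0.57), with CDC25A at -1.61 and CCND3 at -1.56. MYC, a driver of growth and S phase entry, rose with Torin in each of these genotypes, by 1.42 in WT (adjusted p 5.13e-05), 1.14 in TFE3 KO (0.000132) and 1.52 in TFEB KO (5.19e-06). In HBSS 6 fell and 2 rose (24.7% and 23.6%, median -0.77), led by CCNE2 (-1.75), CCND3 (-1.25) and SKP2 (-1.20), which targets the CDK inhibitor p27 for breakdown. Of 6 CDK inhibitors, 2 rose and 1 fell with Torin in WT (20.5% and 23.4% of all genes, list median -0.17). In TFE3 KO 2 rose and 2 fell (25.4% and 26.0%, list median -0.13). In TFEB KO 1 rose and 1 fell (17.4% and 21.0%, list median -0.13), and in HBSS 2 rose and 2 fell (23.6% and 24.7%, list median -0.26). CDKN1B, which encodes p27, rose by 0.41 with Torin in WT (adjusted p 0.00199), by 0.44 in TFE3 KO, by 0.36 in TFEB KO and by 0.84 in HBSS. CDKN2C, which holds back the D-type cyclin kinases, fell in the same comparisons by 0.77, 0.79, 0.66 and 0.70. CDKN1C, a relative of CDKN1B with a mean value too low for the rule on named genes and named after its values were seen, rose by 0.98 with Torin in WT (adjusted p 0.00201) and by 0.90 in TFE3 KO (0.00110). CDKN2D was at 0.69 in HBSS (adjusted p 0.00473) and at -0.87 with Torin in TFE3 KO (0.000103).

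Across the 9 group means of log2(value + 1), the members' own patterns were compared with each other and with all tested genes of mean value 5 or more. E2F2 ran closest to E2F7 (Pearson r 0.954), TFDP1 (0.948), E2F1 (0.941) and RBL1 (0.932) within the family, and opposite to RBL2 (-0.917). E2F3 had lower r with E2F2 (0.542) and RBL1 (0.353). The nearest genes outside the family were DONSON (0.994), NPLOC4 and ABHD12 for E2F1, STARD7 (0.993), MCM10 (0.988) and TMEM165 for E2F2, and SSU72 (0.970), TUSC1 and PIGU for E2F3. They were MELK (0.992), RAD51AP1 and PSMC3IP for E2F7, MTMR6 (0.961), CCNJ and TOR1AIP2 for E2F8, and UBE2T (0.994), TPM3 and PIGW for TFDP1. For the pocket proteins they were CCDC12 (0.963), GPATCH2 and FARS2 for RB1, USP14 (0.991), OTULIN and MAP6D1 for RBL1, and HLA-E (0.982), RNF146 and BOD1L1 for RBL2. The 9 means share their libraries and treatments, so these values are descriptions of likeness and carry no p.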

How the data were processed

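Total RNA of 501mel cells was made into 3′ end libraries with a QuantSeq Forward kit, in which each read stands for the end of 1 transcript. The labels and the study's methods name FastQC 0.11.9, cutadapt 2.10 and STAR 2.7.8a on hg38, and normalisation with edgeR. The signal values deposited by the authors are CPM divided by a factor per library. The counter and the filter that left 13523 genes are not given in the sources used here. All values were whole multiples of 1 read (tolerance 0.01 reads), so reads were recovered by division.

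The filter on low values kept the 13052 genes, all 9 members among them, that reached 1 in 3 or more libraries. In R 4.3.3, limma 3.58.1 fitted a mean per group to log2(value + 1) over 25 libraries, with a robust, intensity-trended prior. The 11 comparisons tested were 2-sided contrasts of this fit, adjusted by Benjamini-Hochberg over all genes tested in each. "Rose" and "fell" mean an adjusted p under 0.05, intervals are 95% intervals of the fit, and fold changes at low values are drawn towards 0 by the added 1. Comparisons with DKO Torin libraries, and E2F2 in untreated DKO, carry no test, since E2F2 in DKO with Torin chose the members. limma on the deposited normalised values took the place of the count test of the study's methods, which was run on the recovered reads as an alternative. Alternatives were edgeR 4.0.16 and DESeq2 1.42.0 on the recovered reads, other pseudocounts, filters and scalings, a replicate block, fits of the compared groups alone, the identical column kept, and leaving out each library. The fit was tested on simulated data.

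The members, lists and tests were chosen with earlier results of these data known. Named genes are all members, TFE3, TFEB, the 3 genes of each list with the largest change past the threshold at a mean value of 5 or more, and the 3 genes nearest to each member. MITF, in the same rule, enters here through the melanocyte markers. TFDP3, CCND2 and CDKN1A were sought and had no row under these symbols in the table. Coordinates are from GENCODE v44 (hg38) and promoters from RefSeq (GRCh38.p14). The promoter search and the within-library shares were added after the values were seen.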

Additional observations from a re-analysis of the deposited data

Results flagged for a closer look

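The Torin response differed between genotypes, by an interaction term, in 5 member-level results. Between TFE3 KO and TFEB KO, E2F1 differed by -1.20 ± 0.26 (SE, adjusted p 0.00140), E2F2 by -1.14 ± 0.24 (0.00148), E2F3 by -0.41 ± 0.12 (0.0177) and TFDP1 by -0.81 ± 0.15 (0.000215) on the log2 scale, each lower in TFE3 KO. These 4 share the same 12 libraries and are not independent of each other. In TFEB KO minus WT, E2F8 differed by 1.82 ± 0.45 (adjusted p 0.0309). E2F8 held 48 reads over the 3 TFEB KO Torin libraries and 5 over the 2 WT Torin libraries. No outlier check was made, since no group has more than 3 libraries.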

How the results depend on the processing

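Of the alternative values of single members named in the report, 1019 kept their direction and side of the threshold, 66 lost the call, 11 gained it and 11 changed sign, and 4 untested values in DKO moved beyond the spread. The changes of sign were in RB1 and E2F8 values that had not passed. RB1 with Torin in WT came to 0.013 with median-of-ratios rescaling, 0.030 with edgeR and 0.016 with DESeq2, and to between -0.23 and 0.17 on leaving out 1 library. RB1 with Torin in TFEB KO came to 0.026 with rescaling, 0.0028 with edgeR and between -0.23 and 0.12 on leaving out 1 library, and E2F8 there to between -0.22 and 0.43. Of 43 further differences not given in the report, 21 changed sign under some alternative, 0 of them past the test with limma. With Torin in DKO, E2F2 was -3.46 with a pseudocount of 0.1, and E2F8 was -2.92 with it, -2.92 with edgeR and -2.98 with DESeq2. The number of members past the threshold in untreated TFE3 KO was 0 with the identical column kept as WT Torin or under both labels, 2 with edgeR and 2 with DESeq2. In untreated TFEB KO it was 1, E2F3 no longer passing (adjusted p 0.138 and 0.124), with the column under either of these settings. For TFE3 KO minus WT it was 1 with DESeq2. For TFEB KO minus WT it was 0 with a minimum value of 5, which removed E2F8, and 0 with the column kept as WT Torin or under both labels. It was also 0 with edgeR and 0 with DESeq2, which gave E2F8 no adjusted p. For TFE3 KO minus TFEB KO it was 2 with the column kept as WT Torin or under both labels, and for HBSS minus Torin 3 with the column under both labels. On leaving out 1 library these counts ran from 0 to 1 in untreated TFE3 KO, from 1 to 2 in untreated TFEB KO, from 0 to 1 for each knockout minus WT and from 3 to 6 for HBSS minus Torin. The cause of these changes was not tested. With the column kept as WT Torin, 2 instead of 11 G2/M genes fell with Torin in WT, 4 instead of 9 in TFEB KO, and 4 instead of 10 passed as lower in TFE3 KO than in TFEB KO, while 3 instead of 6 MuvB and DREAM genes fell in WT. Without WT Torin replicate 2 or 3, 5 instead of 8 G2/M genes rose in WT, and without TFEB KO Torin replicate 3, 3 instead of 5 rose in TFEB KO.

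Replicate numbers did not clearly pair the libraries. Deviations of libraries with the same number correlated at -0.192 to 0.143, with all values above 0 for Torin in TFEB KO and in DKO. The library of the same number was the best match in 78 of 184 cases. The number of matches to expect without pairing was not computed, and pairing was not tested. A replicate block left the number of members past the threshold in each comparison as it was, for example 8 with Torin in WT, where 5699 instead of 5724 of all genes passed. Depth limits E2F8 most, and 2 libraries each limit WT HBSS and WT Torin.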

Other observations

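The column found under both WT HBSS replicate 3 and WT Torin replicate 1 belongs to no group here, and its values were 27.3 for E2F1, 16.3 for E2F2, 199.8 for E2F3, 56.8 for TFDP1, 4.17 for E2F7, 3.03 for E2F8, 20.4 for RBL1, 37.5 for RBL2 and 39.2 for RB1. Set beside the other libraries, E2F1 lay within the range of WT HBSS (26.2 to 31.6, against 11.2 to 12.8 with Torin), as did E2F2 (13.8 to 16.3, against 6.87 to 11.5), and E2F3 lay nearer to it (201.8 to 204.1, against 124.9 to 132.0). TFDP1 lay within the range of WT Torin (48.6 to 59.1, against 72.0 to 72.7 in HBSS), as did E2F7 (2.11 to 4.50, against 8.97 to 9.42). RBL1 lay just below WT HBSS (20.5 to 21.4, against 25.8 to 28.9 with Torin), and RB1 lay within the range of WT Torin (38.2 to 50.6, against 46.5 to 54.8 in HBSS). E2F8 and RBL2 were above both. The column had reads in 12917 genes, where WT HBSS libraries had 12895 and 12901 and WT Torin libraries 13188 and 13181. Its values summed to 1.14e+06, against 1.09e+06 in each WT HBSS library and 985447 and 982925 in WT Torin libraries. With the column counted as WT HBSS, E2F7 was at -0.60 in HBSS (adjusted p 0.0479), where it did not pass otherwise.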
